A study of Homo sapiens with 8 samples.

Results

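Cancer-testis antigens are proteins that are normally made in germ cells and placenta, are silent in most adult tissues, and are found again in many tumors, where T cells can recognize them. Many of their genes lie on the X chromosome, often as recent duplicates in opposite orientation, and DNA methylation of the promoter is a known means by which they are kept silent in somatic cells. The antigens described here are the NY-ESO-1 genes CTAG1A and CTAG1B and their relative CTAG2 (LAGE-1), the MAGE family members MAGEA3, MAGED4 and MAGED4B, the mRNA export factor relatives NXF2 and NXF2B, and PRAME, which is known as a repressor of retinoic acid receptor signaling. The list named 10 genes, and 9 of them had a row among the 21059 genes of the table. MAGEA4 was not analysed here. Because reads cannot be divided reliably between near-identical copies, CTAG1A was summed with CTAG1B, NXF2 with NXF2B, and MAGED4 with MAGED4B, which left 6 transcript units among 21056 rows.

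The cells were MDA-MB-157, an established human breast cancer line labelled as estrogen receptor negative. All cultures came from this 1 line, were conditioned in 5 mM glucose in flasks, and were then held for 48 hours in serum-free medium. In 4 of them, called low glucose, the concentration stayed at 5 mM, and in the other 4, called high glucose, it was raised to 25 mM. No library with an added osmotic control such as mannitol was analysed here, so glucose and osmolarity cannot be told apart. The comparison asks how transcripts respond to a concentration used as a model of hyperglycemia. These antigens were picked with the measured difference between the glucose groups already known, so their values in that contrast are given as a description and without any test. Values are read counts per 1000000 (CPM), scaled by the authors, and the listed genes held an estimated 9721649 to 12482542 reads per library. Differences are on the log2(CPM + 1) scale, high minus low glucose, with the standard error (SE) from limma. RNA came from bulk cultures, so fewer cells carrying a transcript and less transcript per cell cannot be told apart. Whether the 4 replicates of a group were independent experiments is not given, so errors and p-values measure the spread between these flasks or libraries.

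The label of the line was checked against markers. ESR1, the estrogen receptor, averaged 0.121 CPM in low glucose and 0.0598 CPM in high glucose. Both means lay under the 0.212 to 0.267 CPM that 3 reads were worth. The other receptors on the marker list were above that worth, PGR at 4.76 and 5.35 CPM and ERBB2 at 63.6 and 39.2 CPM. CDH1 (E-cadherin) averaged 0.949 and 0.961 CPM. Of 9 breast epithelial markers, 2 rose and 2 fell. The luminal keratins KRT18 (234 and 170.1 CPM) and KRT8 (131 and 88.3 CPM) fell, and EPCAM rose from 4.5 to 6.996 CPM. KRT7 rose from 0.104 to 0.488 CPM, with overlapping groups and a low glucose mean under the worth of 3 reads. KRT19 averaged 0.0182 and 0.0406 CPM, and KRT14 was listed at 0. VIM (vimentin), a mesenchymal filament, averaged 4091 and 2967 CPM. Of 7 mesenchymal markers, 5 fell, VIM among them, and 2 rose. The markers that rose were CDH2 and ZEB1, each by 0.44 on the log2 scale. Of 7 immune and endothelial markers, 5 had a row, of which 1 rose and 2 fell. Their summed level was 12.0 to 16.6 CPM in low glucose and 13.4 to 16.8 CPM in high glucose. Only 5 of 27 listed germ cell genes had a row, and their summed level was 9.0 to 11.1 CPM in low glucose and 6.98 to 9.75 CPM in high glucose, with SYCP2, a protein of the meiotic chromosome axis, the highest at 4.43 and 3.55 CPM. The library high glucose replicate 1 stood apart in its transcripts under 1 kb (684 rows). They lay a median of 0.29 log2 units above the mean of the other high glucose libraries. The shift was graded, since its transcripts of 1 to 3 kb (4109 rows) deviated by 0.16 and those of 3 kb and over (6459 rows) by -0.07. For transcripts under 1 kb, the same measure, each library against the rest of its group, was -0.05, -0.09 and -0.14 in high glucose replicates 2, 3 and 4. Values are therefore also given after a length trend was removed from each library.

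The pairs that share most of their sequence are shown first, because they decide which values can be read singly. Coding sequences were compared between transcripts of GENCODE release 44 mapped to GRCh37. CTAG1A and CTAG1B had the same coding sequence in all 543 bases, and MAGED4 and MAGED4B in all 2226 bases, so no read within the coding part tells these copies apart. NXF2 and NXF2B differed at 1 of 1881 coding bases. CTAG1B and CTAG2 differed at 43 of 543 coding bases, an identity of 92.1%, and the longest identical run between them was 151 bases. The ungapped window of 90 coding bases with the highest number of differences, positions 200 to 289 counted from the A of the start codon, is printed with its 20 differing bases in capitals.
CTAG1B: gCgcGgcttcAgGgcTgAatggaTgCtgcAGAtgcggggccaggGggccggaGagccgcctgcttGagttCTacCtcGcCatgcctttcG
CTAG2: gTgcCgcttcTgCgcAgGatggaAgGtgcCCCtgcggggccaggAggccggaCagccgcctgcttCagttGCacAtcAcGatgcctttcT
Reads over such stretches separate CTAG1 from CTAG2, whereas 44.5% of the 50-base words of either transcript also occurred in the other. MAGEA3 and its closest relative, MAGEA6, differed at 18 of 945 coding bases (identity 98.1%), and 43.0% of the 50-base words of the MAGEA3 transcript occurred in MAGEA6. How the deposited values divided such shared reads is not given, and its part in the values of CTAG1, CTAG2, MAGEA3 and MAGEA6 was not tested.

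Promoters were taken from RefSeq on GRCh38.p14 for 6 of the 9 antigens, as the 250 bases before the first listed start of each gene. CTAG1A, CTAG1B and CTAG2 are not among the promoters used here. The windows of 3 units that were lower in high glucose and of MAGEA3, whose groups overlapped, are printed 5′ to 3′ with CpG dinucleotides, the sites of DNA methylation, in capitals. The MAGED4 window lies at chrX:52184638-52184887 (plus strand), the NXF2 window at chrX:102246917-102247166 (plus strand), the PRAME window at chr22:22559266-22559515 (minus strand) and the MAGEA3 window at chrX:152698544-152698793 (plus strand).
MAGED4: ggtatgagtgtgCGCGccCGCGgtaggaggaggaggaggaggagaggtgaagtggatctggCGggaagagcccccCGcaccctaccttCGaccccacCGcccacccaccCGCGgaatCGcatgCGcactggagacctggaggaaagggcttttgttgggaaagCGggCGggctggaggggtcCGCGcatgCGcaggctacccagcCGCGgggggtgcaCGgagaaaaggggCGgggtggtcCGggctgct
NXF2: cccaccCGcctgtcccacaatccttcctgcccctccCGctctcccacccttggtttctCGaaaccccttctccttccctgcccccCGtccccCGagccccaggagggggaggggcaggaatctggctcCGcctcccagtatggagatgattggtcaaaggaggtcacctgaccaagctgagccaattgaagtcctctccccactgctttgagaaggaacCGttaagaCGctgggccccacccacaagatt
PRAME: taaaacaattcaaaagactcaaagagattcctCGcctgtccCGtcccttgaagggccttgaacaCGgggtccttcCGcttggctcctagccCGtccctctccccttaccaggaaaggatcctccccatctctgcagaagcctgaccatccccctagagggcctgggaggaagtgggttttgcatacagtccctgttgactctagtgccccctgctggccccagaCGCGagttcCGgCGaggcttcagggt
MAGEA3: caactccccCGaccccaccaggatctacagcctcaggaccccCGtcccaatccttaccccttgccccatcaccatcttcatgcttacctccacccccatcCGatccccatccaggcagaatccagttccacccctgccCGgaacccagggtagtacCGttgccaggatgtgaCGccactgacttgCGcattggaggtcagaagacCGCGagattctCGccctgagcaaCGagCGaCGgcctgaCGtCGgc
MAGED4 had 22 CpG sites, MAGEA3 had 15, PRAME had 9 and NXF2 had 8, against a median of 11 over 27305 promoters. The window of MAGED4B, the copy under which more of the sum was listed in all libraries but high glucose replicate 1, had 16 (40.8% of promoters had at least as many) and that of NXF2B had 8. The share of promoters with at least as many CpG sites was 27.6% for MAGED4, 42.7% for MAGEA3, 53.8% for PRAME and 55.8% for NXF2. The GC box core GGGCGG, searched on both strands, occurred 3 times in the MAGED4 window, 2 times in that of MAGED4B and in none of the other 3 printed windows, and 42.3% of all promoters held it. The ETS core CGGAAG occurred once in the PRAME window and in 16.8% of all promoters, and the E-box CACGTG was in none of the 4 windows and in 6.49% of all promoters. The 300 bases around the start were identical between MAGEA3 and MAGEA6, although their transcript levels differed. Over the same 300 bases, NXF2 and NXF2B shared a run of 233 bases and MAGED4 and MAGED4B a run of 235 bases, at shifted starts.

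Of the 6 units, 4 were lower in every high glucose library than in any low glucose library (MAGED4, NXF2, CTAG1 and PRAME), and CTAG2 and MAGEA3 had overlapping groups. Over all 21056 rows, 23.6% were lower in this way, and of the 11294 rows with a mean of at least 5 CPM 32.5% were. These shares are given for scale only, since the members were picked on this contrast. The summed level of the 6 units was 325 to 336 CPM in low glucose and 200.2 to 247 CPM in high glucose. The median difference over the 6 units was -0.80, beside a median of -0.01 over all rows and of -0.04 over rows with a mean of at least 1 CPM.

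**Figure D1:**
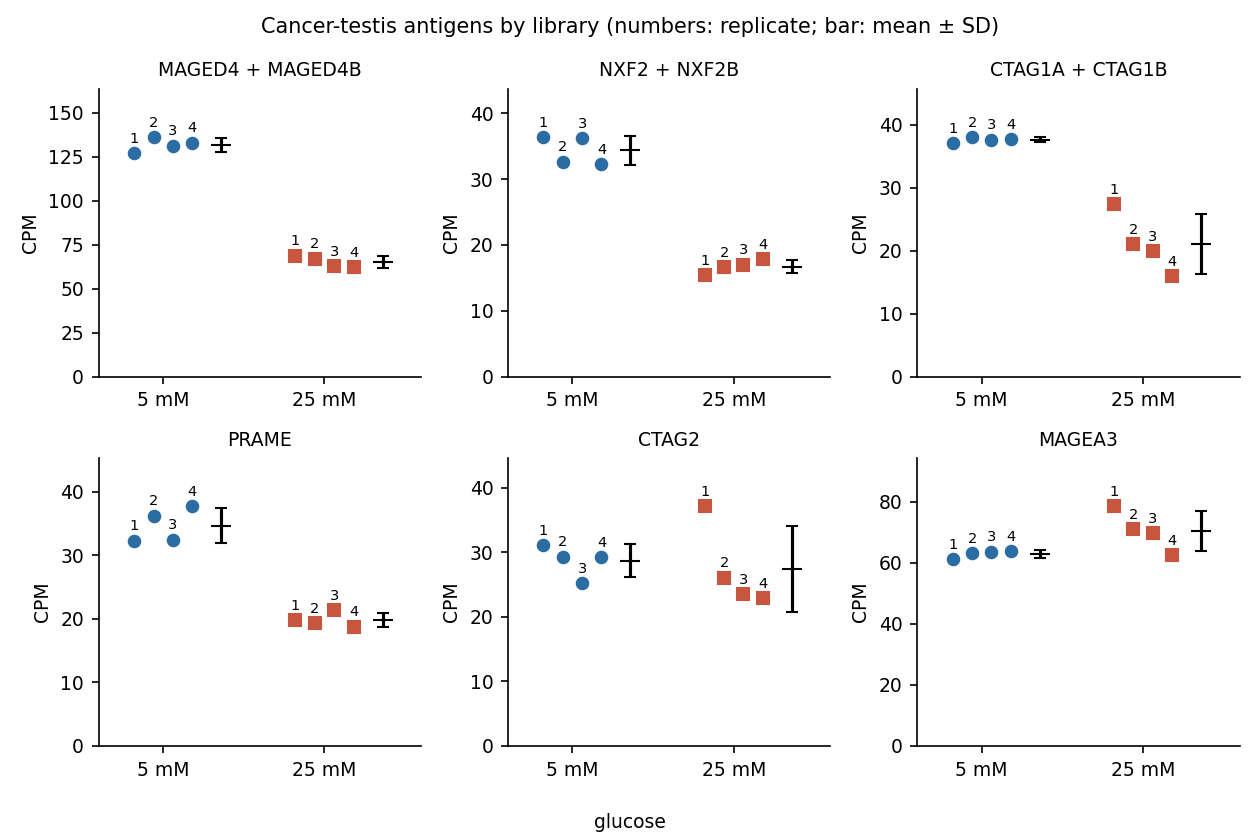
Level of each antigen unit in CPM (vertical axes, from 0) in the 4 low glucose (5 mM, circles) and 4 high glucose (25 mM, squares) libraries; numbers are replicates and black bars are the mean ± SD. MAGED4, NXF2, CTAG1 and PRAME separate without overlap, whereas CTAG2 and MAGEA3 overlap, with high glucose replicate 1 the highest for both.

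MAGED4 and MAGED4B (ENSG00000154545.16 and ENSG00000187243.16) belong to the MAGE-D branch of the family, and lie in the annotation at chrX:52184888-52192268 and chrX:52061827-52069272 on GRCh38.p14. Their sum was 127, 136, 131 and 133 CPM in low glucose replicates 1 to 4 and 68.8, 66.9, 62.8 and 62.2 CPM in high glucose replicates 1 to 4. The mean was 132 ± 3.90 CPM in low glucose and 65.2 ± 3.18 CPM in high glucose (SD, n = 4 each), which is the highest mean of the 6 units in low glucose. No high glucose library came near the low glucose range, and the difference was -1.01 ± 0.04 (SE). It was -0.999 once the length trend was removed.

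NXF2 and NXF2B (ENSG00000269405.6 and ENSG00000269437.7) resemble NXF1, the receptor that carries most mRNA out of the nucleus, and are expressed mainly in testis. The genes lie at chrX:102247167-102326722 and chrX:102360395-102440008. Their sum was 36.4, 32.7, 36.2 and 32.3 CPM in low glucose and 15.4, 16.6, 17.0 and 17.9 CPM in high glucose. All 4 high glucose libraries were below all 4 low glucose libraries, with means of 34.4 ± 2.22 and 16.7 ± 1.01 CPM. The difference was -0.998 ± 0.06, and -0.98 with the length trend removed.

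CTAG1A and CTAG1B (ENSG00000268651.3 and ENSG00000184033.13) encode NY-ESO-1, an intracellular protein that has been used as a target of vaccines and engineered T cells. They lie at chrX:154585133-154586816 and chrX:154617609-154619282. The CTAG1 sum was 37.1, 38.1, 37.7 and 37.7 CPM in low glucose and 27.4, 21.1, 19.97 and 16.0 CPM in high glucose. The low glucose libraries lay within 1 CPM of each other (37.6 ± 0.404 CPM), whereas the high glucose libraries were spread (21.1 ± 4.75 CPM) and did not reach the low glucose range. The difference was -0.83 ± 0.14. The transcript is short (769 bases) and its highest high glucose value was in replicate 1, the library with raised short transcripts. With the length trend removed the difference was -0.74, and without high glucose replicate 1 it was -0.96.

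PRAME (ENSG00000185686.18) is a leucine-rich repeat protein and the only autosomal antigen here, at chr22:22547701-22559265. PRAME was at 32.3, 36.3, 32.4 and 37.7 CPM in low glucose and at 19.8, 19.3, 21.4 and 18.8 CPM in high glucose. The groups did not overlap, with means of 34.7 ± 2.73 and 19.8 ± 1.13 CPM. The difference was -0.78 ± 0.06, and -0.76 with the length trend removed.

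CTAG2 (ENSG00000126890.13) lies at chrX:154651977-154653579, beside the CTAG1 copies. Its level was 31.2, 29.3, 25.2 and 29.3 CPM in low glucose and 37.2, 26.1, 23.5 and 22.9 CPM in high glucose. High glucose replicate 1 was the highest of all 8 libraries and high glucose replicate 4 the lowest, so the low glucose values fell within the range of the high glucose values. The means were 28.7 ± 2.52 and 27.4 ± 6.65 CPM, with a difference of -0.09 ± 0.16. The CTAG2 transcript is also short (759 bases), and the difference was -0.00 with the length trend removed and -0.24 without high glucose replicate 1.

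MAGEA3 (ENSG00000221867.9) is a partner of the ubiquitin ligase TRIM28 and lies at chrX:152698794-152702347. Its level was 61.1, 63.1, 63.7 and 63.9 CPM in low glucose and 78.5, 71.0, 69.6 and 62.6 CPM in high glucose. In high glucose, 3 libraries were above the low glucose range and replicate 4 was within it. The means were 63.0 ± 1.25 and 70.4 ± 6.54 CPM, with a difference of 0.16 ± 0.06. It was 0.19 with the length trend removed and 0.10 without high glucose replicate 1. The other member of the highly similar pair, MAGEA6, was at 1.96 to 3.13 CPM in low and 2.29 to 3.43 CPM in high glucose. MAGEA3 thus exceeded MAGEA6 by 20.2 to 31.2 times in low and by 22.7 to 30.5 times in high glucose.

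The value in 1 library rested on an estimated 180 to 518 reads for CTAG1, 257 to 526 for CTAG2, 201 to 444 for NXF2, 211 to 518 for PRAME, 704 to 1112 for MAGEA3 and 700 to 1824 for MAGED4. These numbers give counting precision only.

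Per kilobase of transcript, the order of the levels changed between the groups. In low glucose the order was MAGED4 (52.0 ± 1.54 CPM per kb), CTAG1 (49.0 ± 0.526), CTAG2 (37.9 ± 3.32), MAGEA3 (30.2 ± 0.602), PRAME (15.1 ± 1.18) and NXF2 (14.3 ± 0.927), and only the neighbours PRAME and NXF2 overlapped. In high glucose it was CTAG2 (36.1 ± 8.76), MAGEA3 (33.8 ± 3.14), CTAG1 (27.5 ± 6.18), MAGED4 (25.7 ± 1.25), PRAME (8.60 ± 0.489) and NXF2 (6.96 ± 0.419). There CTAG1 overlapped CTAG2, MAGEA3 and MAGED4, and CTAG2 overlapped MAGEA3, whereas MAGED4 lay below both CTAG2 and MAGEA3 in every library and above PRAME.

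A ratio within a library does not depend on how that library was scaled. The ratio of CTAG2 to CTAG1 was 0.839, 0.770, 0.669 and 0.776 in low glucose and 1.35, 1.24, 1.18 and 1.43 in high glucose. CTAG1 was therefore the more abundant of the related transcripts in every low glucose library and CTAG2 in every high glucose library. The ratio of MAGEA3 to MAGED4 was 0.463 to 0.485 in low glucose and 1.01 to 1.14 in high glucose.

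**Figure D2:**
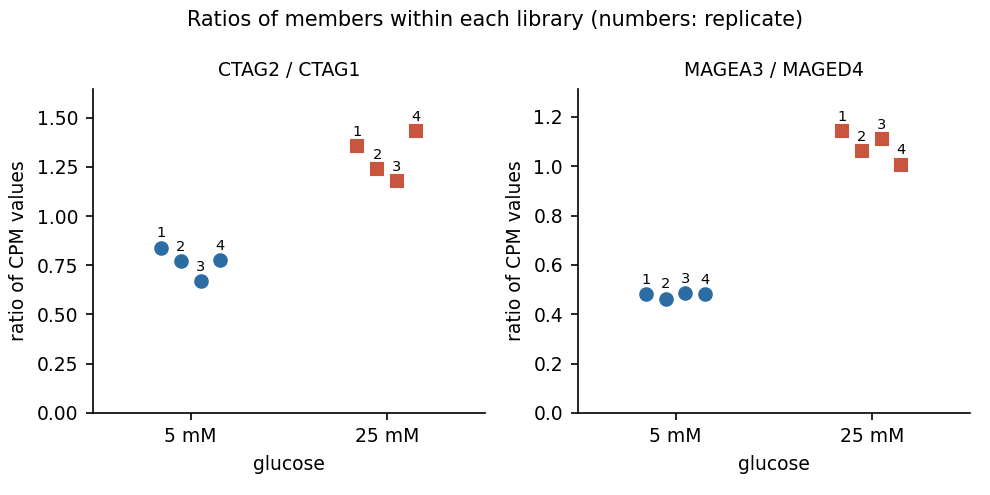
Ratio of CTAG2 to CTAG1 (left) and of MAGEA3 to MAGED4 (right) in each library, both axes from 0, with low glucose (5 mM) as circles and high glucose (25 mM) as squares and replicates numbered. The ratios ran from 0.669 to 0.839 and from 0.463 to 0.485 in low glucose and from 1.18 to 1.43 and from 1.01 to 1.14 in high glucose.

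The single copies behaved differently from their sums. The share of the CTAG1 level listed under CTAG1A was 13.7, 24.0, 25.7 and 11.8% in low glucose and 44.7, 76.5, 22.7 and 0% in high glucose. The share of the NXF2 level listed under NXF2 rather than NXF2B ran from 35.1 to 72.9% in low and from 0 to 57.3% in high glucose, and the share of the MAGED4 level listed under MAGED4 ran from 20.9 to 35.2% and from 16.5 to 54.1%. CTAG1A was listed at 0 in high glucose replicate 4 and NXF2 in high glucose replicate 2, while the sums in these libraries were 16.0 and 16.6 CPM.

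In low glucose the coefficient of variation was 38.2% for CTAG1A, 8.22% for CTAG1B and 1.07% for their sum, and it was 33.5% for NXF2, 36.2% for NXF2B and 6.47% for their sum. In high glucose it was 60.4% for MAGED4, 21.2% for MAGED4B and 4.88% for their sum. Taken singly, the differences were -0.38 ± 0.89 for CTAG1A and -1.30 ± 0.34 for CTAG1B, and -1.89 ± 0.74 for NXF2 and -0.57 ± 0.36 for NXF2B. Those of MAGED4 (-1.01 ± 0.37) and MAGED4B (-1.06 ± 0.17) lay closer together. The sums varied less than each of their copies in every group, and the sums are used in the comparisons.

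**Figure D3:**
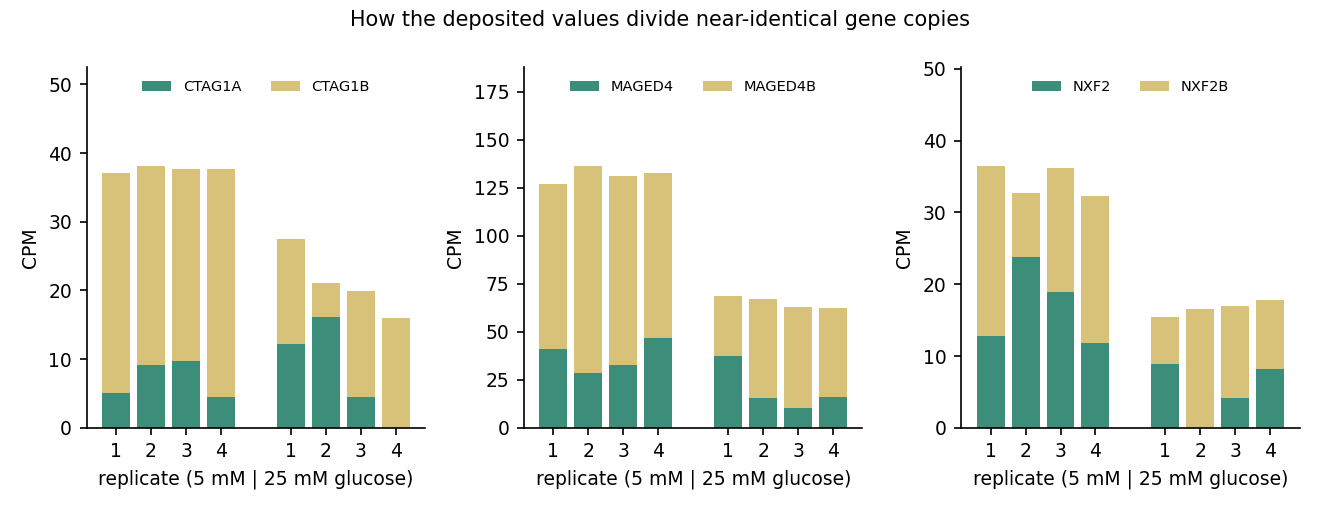
Level in CPM (vertical axes, from 0) listed for each copy of the CTAG1, MAGED4 and NXF2 pairs, stacked, in replicates 1 to 4 of low (left bars) and high glucose (right bars). The split between copies moved from library to library, with CTAG1A at 0 in high glucose replicate 4 and NXF2 at 0 in high glucose replicate 2, whereas the bar heights stayed within 126.9 to 136.2 CPM for MAGED4 in low glucose.

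The profiles of the units over the 8 libraries were compared as the root mean square distance of centred log2(CPM + 1) values. MAGED4 and NXF2 were closest (0.12), followed by MAGED4 and PRAME (0.14), and MAGEA3 and NXF2 were farthest apart (0.60). CTAG1 lay nearer to MAGED4 (0.18) than to its relative CTAG2 (0.39), and CTAG2 lay nearest to MAGEA3 (0.20). Among 11293 rows with a mean of at least 5 CPM, the genes closest to MAGED4 were STAT2 (distance 0.0305), LINC01436 (0.0384) and SLC35E2B (0.0412), and those closest to MAGEA3 were TUBB6 (0.0249), DDX56 (0.0274) and LMAN2 (0.0301). Closest to CTAG1 were MVB12A (0.0575), B4GALT7 (0.0576) and NINJ1 (0.0631), and closest to CTAG2 were AC006453.2 (0.0673), TMEM147 (0.0707) and PUSL1 (0.0773). SORBS2 (0.0501), PRXL2A (0.0560) and AARS (0.0565) were closest to NXF2, and PIGO (0.0589), PBX2 (0.0590) and WDR11 (0.0600) to PRAME. All points share the same 8 libraries and their 2 groups, so these distances are a description.

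Genes that are not members were tested with limma over all 21056 rows. Of all rows, 46.8% had an adjusted p under 0.05, 22% as higher and 24.8% as lower in high glucose. For rows with a mean of at least 5 CPM the shares were 33.6% higher and 33.3% lower.

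The widely expressed MAGE genes, which share the MAGE homology domain with MAGEA3 and MAGED4 but are active in many normal tissues, were lower in high glucose. Of the 8 with a row, 7 fell, none rose, and the median difference was -0.64. Among all rows with a mean of at least 5 CPM, which 7 of the 8 reached, 33.3% were called lower. MAGED2, mutated in a transient antenatal form of Bartter syndrome, fell from 478 ± 7.64 to 198 ± 19.9 CPM (-1.27 ± 0.07, adjusted p = 1.04e-05). MAGED1, which binds the nerve growth factor receptor, fell from 304 ± 5.64 to 129.8 ± 9.23 CPM (-1.22 ± 0.05, adjusted p = 3.52e-06). TRO (trophinin), a cell adhesion protein, fell by 0.81 and MAGEH1 by 0.75 on the log2 scale (adjusted p = 2.01e-05 and 0.00105). MAGED4, at -1.01, thus lay beside the other MAGE-D genes, and MAGEA3, at 0.16, did not. The difference between these genes was not tested.

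The other X-linked cancer-testis antigens were mostly low or without a row. Of 110 listed genes 36 had a row, 9 had a mean of at least 1 CPM, and 2 reached 5 CPM. Of the 36, 4 rose, 4 fell and 28 did not pass the test, with a median of 0.05. The shares over all rows were 22% higher and 24.8% lower. MAGEC2, a MAGE antigen that also pairs with TRIM28, was the most abundant of them and fell from 159 ± 2.01 to 134 ± 12.7 CPM (-0.25 ± 0.06, adjusted p = 0.0141). MAGEC3 fell from 1.39 to 0.519 CPM (-0.66, adjusted p = 0.00321). The sperm protein gene SPANXA2 was listed at 2.76 and 1.34 CPM (-0.68, adjusted p = 0.00462) and its near-identical copy SPANXA1, chosen after its values were seen, at 0.7005 and 0.942 CPM (0.19, adjusted p = 0.131), and how shared reads were divided between them is uncertain. SSX1 and PAGE5 rose from 0.0415 to 0.302 CPM and from 0.165 to 0.560 CPM (adjusted p = 0.00221 and 0.00220), levels of only a few reads. PAGE2, another gene with a near-identical copy, rose from 2.82 to 4.40 CPM (0.49 ± 0.16, adjusted p = 0.0430), a call lost when any of low glucose replicates 2, 3 and 4 or high glucose replicates 1, 2 and 4 was left out (0.38 to 0.53). MAGEA10 (6.89 and 7.09 CPM, adjusted p = 0.738) and MAGEA6 (2.63 and 2.88 CPM, adjusted p = 0.615) did not pass the test. In all, 8 of 36 passed, and 3 passed when rows under 1 CPM were left out or the length trend was removed.

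**Figure D4:**
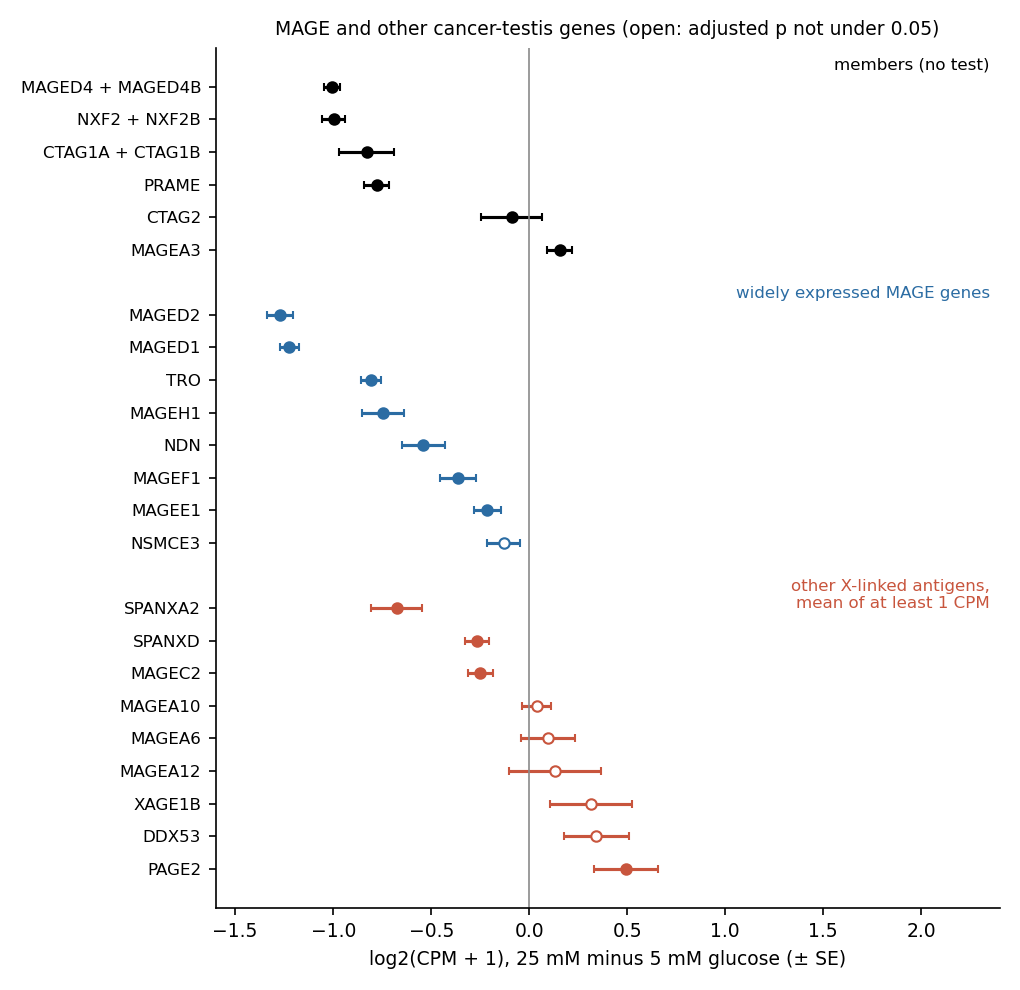
Difference in log2(CPM + 1) between high and low glucose (horizontal axis, points with SE bars) for the 6 antigen units (black, no test), the 8 widely expressed MAGE genes (blue) and the 9 other X-linked antigens with a mean of at least 1 CPM (red). Filled blue and red points had an adjusted p under 0.05 in limma; the antigen units ran from -1.01 for MAGED4 to 0.16 for MAGEA3, and 7 of 8 blue points are filled and below 0.

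Among other autosomal antigens, the class to which PRAME belongs, more genes rose than fell, whereas PRAME was lower in high glucose. Of 99 listed genes 59 had a row, 15 rose, 5 fell and 39 did not pass the test, with a median of 0.01. Over all rows, 22% were called higher and 24.8% lower. ELOVL4, an enzyme that lengthens very long fatty acids, rose from 28.7 ± 1.40 to 80.4 ± 3.49 CPM (1.46 ± 0.04, adjusted p = 1.52e-06), and ATAD2, a bromodomain protein, rose from 119 ± 5.41 to 248 ± 13.2 CPM (1.06 ± 0.05, adjusted p = 5.45e-06). TTK, a kinase of the spindle checkpoint, rose by 0.63 on the log2 scale (adjusted p = 1.53e-05) and SPAG9, a scaffold of JNK signaling, by 0.58 (adjusted p = 0.000148). SPAG4, a nuclear envelope protein of sperm, fell from 3.96 to 1.66 CPM (-0.90 ± 0.08, adjusted p = 0.000133). Several of these genes are also active in dividing somatic cells.

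Of 35 genes reported here whose start (the lower coordinate) lies within 250 kb of that of a member, 5 rose and 9 fell. Of 18 near the CTAG genes, 4 rose and 6 fell. DNASE1L1, a relative of the nuclease DNase I, fell from 78.0 ± 1.57 to 41.5 ± 4.22 CPM (-0.90 ± 0.07, adjusted p = 5.70e-05). IKBKG, a regulatory subunit of the kinase that activates NF-kappa-B, was at 15.4 and 13.5 CPM (-0.18 ± 0.11, adjusted p = 0.222). LAGE3, the third member of the CTAG family and a subunit of a tRNA modification complex, was at 10.8 ± 0.997 and 7.56 ± 2.59 CPM (-0.50 ± 0.20, adjusted p = 0.0777), and the difference was -0.69 and passed the test without high glucose replicate 1. DKC1 and SLC10A3 rose in the same region by 0.62 and 0.60 (adjusted p = 1.81e-05 and 0.00333). Of 10 genes near MAGEA3, 1 rose and 3 fell, and CETN2, a centriole protein, fell from 41.3 to 22.1 CPM (-0.88 ± 0.09, adjusted p = 0.000219). None of the 4 genes near NXF2, the 2 near PRAME and the 1 near MAGED4 passed the test. In these data the genes around the CTAG cluster and MAGEA3 moved in both directions, as did the rows of the whole table. Of all rows, 22% were called higher and 24.8% lower, so these counts are not read as a trait of the regions.

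**Figure D5:**
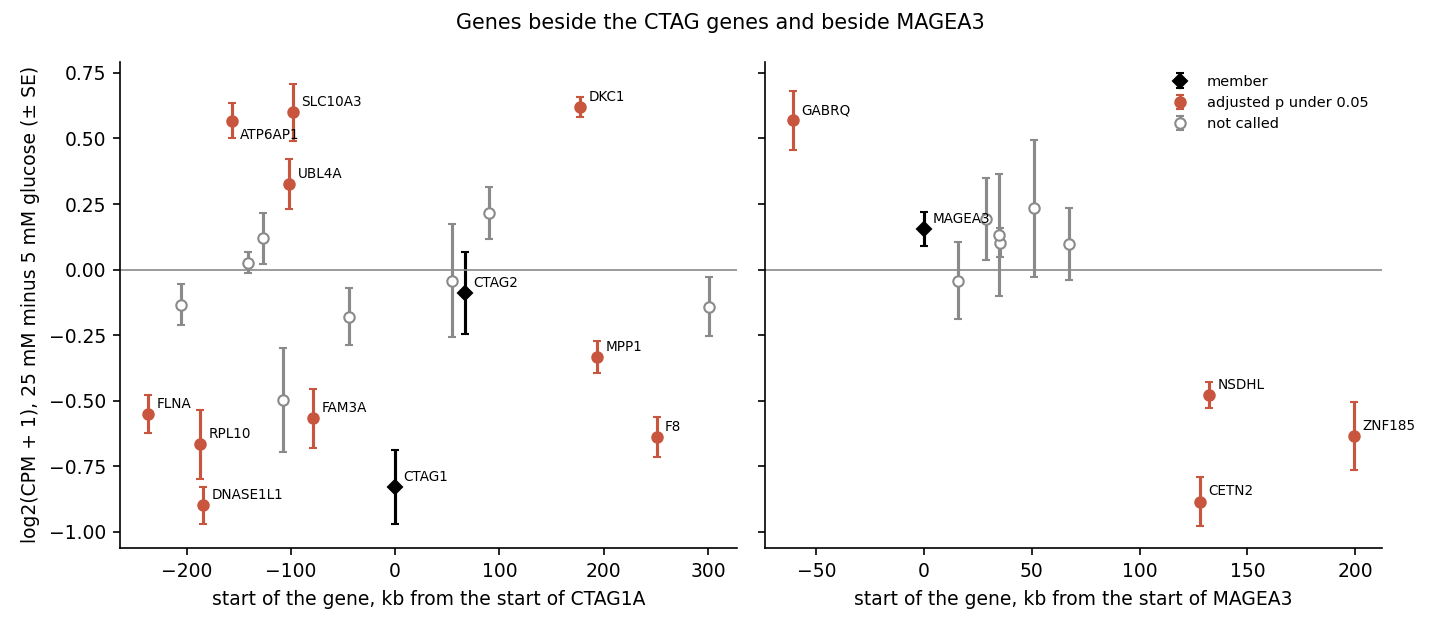
Difference in log2(CPM + 1) between high and low glucose (vertical axis, points with SE bars) against the distance in kb of each gene's start from that of CTAG1A (left) or MAGEA3 (right). Black diamonds are members, filled circles had an adjusted p under 0.05 and open circles did not; near the CTAG genes 4 rose and 6 fell, and near MAGEA3 1 rose and 3 fell.

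The partners and pathways of the antigens were described from further lists. Of 21 proteins that bind MAGE antigens or PRAME, 7 rose and 4 fell, with a median of -0.01. A mean of at least 5 CPM was reached by 19 of them, and 33.6% of all such rows were called higher and 33.3% lower. These counts are therefore not read as a trait of the partners. RARA, a retinoic acid receptor that PRAME is known to bind, rose from 27.3 ± 1.35 to 51.9 ± 1.199 CPM (0.91 ± 0.04, adjusted p = 3.88e-06), while PRAME itself was lower. The other retinoic acid receptors of the list, chosen after their values were seen, did not move as 1 group. RARB fell from 3.43 to 1.35 CPM (-0.90, adjusted p = 0.00446), and RARG rose from 34.5 to 40.4 CPM (0.22, adjusted p = 0.0413). ELOC, a subunit of cullin ubiquitin ligases, rose by 0.67 (adjusted p = 0.000211). SKP2, a substrate receptor of another ubiquitin ligase, fell by 0.40 (adjusted p = 6.59e-05). TRIM28, the partner of MAGEA3 and MAGEC2, was at 92.5 ± 4.88 and 109.6 ± 15.7 CPM (0.23 ± 0.10, adjusted p = 0.108), and the difference was 0.15 without high glucose replicate 1 and 0.32, past the threshold, without high glucose replicate 4.

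Of 26 mRNA export genes, 11 rose and 2 fell, with a median of 0.06. A mean of at least 5 CPM was reached by 25 of them, and 33.6% of all such rows were called higher and 33.3% lower. The count is therefore not read as a trait of the pathway. NXF1, the widely expressed relative of NXF2, rose from 86.8 ± 2.72 to 126 ± 5.56 CPM (0.54 ± 0.04, adjusted p = 3.24e-05), in the opposite direction to the NXF2 sum. NUP98, a nucleoporin, rose by 0.67 (adjusted p = 7.99e-05) and FMR1, an RNA-binding protein, by 0.65 (adjusted p = 6.78e-06).

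A further list held regulators of DNA methylation and chromatin that bear on the silencing of germline genes, mostly repressors but also demethylating enzymes of the TET family and activators such as SP1 and ETS1. Of its 45 genes with a row, 23 rose and 6 fell, with a median of 0.23. All 45 had a mean of at least 5 CPM, and 33.6% of all such rows were called higher and 33.3% lower. Whether the list differs from these shares was not tested. SUZ12, a core subunit of Polycomb repressive complex 2, rose from 67.4 ± 1.59 to 115 ± 1.16 CPM (0.76 ± 0.02, adjusted p = 9.89e-07). TET3, which oxidizes 5-methylcytosine and so acts against methylation, rose from 67.6 ± 1.62 to 168 ± 22.5 CPM (1.29 ± 0.09, adjusted p = 3.80e-05). UHRF2 rose by 0.54 and HDAC1, a histone deacetylase, by 0.41 (adjusted p = 3.48e-06 and 7.66e-05). Chosen after their values were seen, the DNA methyltransferase DNMT1 rose by 0.21 (adjusted p = 0.0198) and DNMT3A fell by 0.64 (adjusted p = 0.000187). Of the 5 germ cell genes with a row, MEIOB rose from 1.5 to 2.17 CPM (0.34, adjusted p = 0.0154) and MOV10L1 fell from 3.55 to 2.12 CPM (-0.56, adjusted p = 0.0355), both meiotic or piRNA factors. The calls of MOV10L1 were lost when low glucose replicate 2, 3 or 4 or high glucose replicate 3 was left out (-0.48 to -0.60).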

How the data were processed

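RNA of 8 MDA-MB-157 cultures was sequenced on an Illumina HiSeq. The deposited values are CPM, read counts divided by library size in units of 1000000, which per the labels were normalized in edgeR, and which the methods of the study give as scaled by trimmed mean of M values. The labels name hg38, whereas the methods of the study, written for tumors, name hg19, Trimmomatic and TopHat, and the tool that counted reads and its use of strand are not given in the sources used here. Low values lay on steps of 0.0706 to 0.0889 CPM, the worth of 1 read, but only 78.5 to 79.5% of values under 200 reads were whole steps (tolerance 0.1 read), so whole reads were not recovered and a count test was not run. Estimated reads are the summed CPM of the listed genes (855279 to 882494 per library) divided by the step, so reads outside these genes are not included. Floors and reads cover counting error only.

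The 18 Y copies of pseudoautosomal genes, identical to the X copies, were left out. After summing copies, log2(CPM + 1) was compared with limma 3.58.1 in R 4.3.3 (trend, 2-sided, no covariate), with Benjamini-Hochberg adjustment over 21056 rows and a threshold of 0.05. The script was tested on simulated data. The members and the lists were chosen with earlier results of these data known. The plan named 7 units, of which 6 had values. Named genes are the members, up to 4 genes of each list with the smallest adjusted p past the threshold and up to 4 with the highest mean, genes within 250 kb of a member, the 3 closest profiles of each unit, and MAGEA6. Results for 2 genes within 250 kb of a member are left out here. Lists were compiled from general knowledge. The X-linked and neighbour lists share 6 genes and the partner and chromatin lists 2. Gene positions and promoters are from RefSeq (GRCh38.p14), and transcript lengths from GENCODE release 44 mapped to GRCh37. Alternatives were a pseudocount of 0.1, a minimum of 1 CPM, 2 other scalings, a replicate block, removal of a length trend (spline with 5 degrees of freedom), copies not summed, and each library left out.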

Additional observations from a re-analysis of the deposited data

Results flagged for a closer look

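In groups of 4 libraries, a library was marked when its gap to the nearest other value was too large a part of the group's range by Dixon's test at 95%. Of 188 groups examined 15 were marked, where chance alone gives about 9.4 (1 in 20). Among the antigens, CTAG1B was marked in high glucose replicate 2, at 4.953 CPM against 15.18 to 15.97 CPM in the other high glucose libraries, where CTAG1A took 76.5% of the sum. High glucose replicate 1, the library with raised short transcripts, was marked for CBX3 (344.2 CPM), ELOC (123.5 CPM), HDAC1 (103.7 CPM) and SKP2 (30.49 CPM). Low glucose replicate 1 was marked for ATRX (272.6 CPM), ENY2 (167 CPM) and IKBKG (18.01 CPM). Other marks were MAGEA10 in high glucose replicate 3 (6.433 CPM), MAGEA2B in high glucose replicate 2 (0.4791 CPM), POLDIP3 in low glucose replicate 4 (70.65 CPM) and SLC10A3 in high glucose replicate 4 (35.37 CPM). XAGE2 was marked in both groups because it was listed at 0 in every library but low glucose replicate 3 (0.08494 CPM) and high glucose replicate 3 (0.08248 CPM). The estimated reads of low glucose replicate 4 (1.21e+07) were also marked.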

How the results depend on the processing

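The median difference over the antigen units was -0.80, and it ran from -0.83 to -0.75 over the alternatives that kept all libraries and from -0.87 to -0.73 with each library left out. No called value turned its direction under the alternatives run. The number of other X-linked antigens that passed fell from 8 to 3 with a minimum of 1 CPM and to 3 with the length trend removed, and both alternatives test fewer rows. The number of germ cell genes that passed was 2, and 1 to 3 with each library left out. Same-numbered replicates did not deviate together (r from -0.0467 to 0.0735 over 11294 rows, and 1 of 4 correlated best with its own number). Whether they share a plating day or a batch is not given, and a check on 4 libraries per group cannot exclude it. With the replicate number as a block, 8922 rows passed against 9850 without it, and 1 germ cell gene passed in place of 2, the call of MEIOB being lost. Of the 83 genes named from the lists or as neighbours of a member, 4 lost their call under at least 1 alternative and 13 gained one. Over all rows, 8903 to 10156 passed with each library left out. Depth limits the antigens under 1 CPM, where 3 reads were worth 0.212 to 0.267 CPM.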
